A study of Mus musculus with 50 samples.

Results

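ATF4 and its amino acid response genes were followed in RAW264.7 cells, a mouse macrophage line, that were treated with DMXAA, a small molecule that activates the DNA-sensing adaptor STING in mouse cells. The set held 34 genes of the 55416 in the deposited tables, chosen by symbol: ATF4 itself, its partner factors and feedback regulators, eIF2 kinases, brakes on mTORC1, enzymes of amino acid, folate and cysteine metabolism, and amino acid transporters. The integrated stress response starts when kinases such as PERK (Eif2ak3) and GCN2 (Eif2ak4) phosphorylate the translation factor eIF2, which lowers general protein synthesis while the mRNA of ATF4 is translated more. ATF4 then pairs with C/EBP proteins on composite DNA sites and activates genes for amino acid uptake and synthesis, along with GADD34 (Ppp1r15a), which directs a phosphatase back to eIF2. ATF4 is controlled largely at translation, so its mRNA is not a measure of its protein, and no protein was measured.

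Poly(A) RNA was sequenced from 50 libraries in 3 batches, here named b1 to b3, to ask how the kinases SGK1 and SGK3 bear on the DMXAA response. The control line carried an empty-vector guide construct and is called wild type in the labels; the edited lines were an SGK3 knockout, an SGK1 knockout and an SGK1/SGK3 double knockout, all made in RAW264.7. DMXAA was given at 10 µg/mL for 2 hours, and in 1 group the SGK inhibitor Sanofi-14h was given at 500 nM for 2 hours beforehand. Batch b1 held control cells at rest (3 libraries), with DMXAA (5) and with inhibitor plus DMXAA (5), the SGK3 knockout at rest (3) and with DMXAA (5), and the double knockout with DMXAA (5). These double-knockout libraries are labelled as DMXAA-treated, but their column names lack the letter D that the other b1 names for DMXAA alone carry; the labels were followed. Batch b2 held control cells at rest (3) and with DMXAA (4), the SGK1 knockout at rest (3) and with DMXAA (4), and the double knockout at rest (3) and with DMXAA (3). Batch b3 held reruns: 1 SGK1 knockout and 2 double-knockout libraries with DMXAA, and library J, whose title and treatment entry disagree and which was assigned to no group. Each genotype is 1 named line, and the labels used here do not say whether a line is a clone, which libraries received the DMSO vehicle before stimulation, or whether libraries came from separate cultures. The p-values therefore measure only the spread between these libraries, which may be technical. In bulk RNA, fewer cells expressing a gene and less RNA per cell cannot be told apart.

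Some facts of the libraries bear on every result. Depth ran from 57859509 to 112007140 estimated counts, and levels are given as CPM, counts scaled to library size with TMM factors and not to gene length. Replicates did not repeat one another: 0 of 71 replicate pairs were identical, with Spearman rho from 0.959 to 0.986 across genes. Batch b2 was noisier, with a median biological coefficient of variation of 0.218 against 0.119 in b1. In 6 b2 libraries, E and F (SGK1 knockout at rest), P and R (SGK1 knockout with DMXAA), H (double knockout at rest) and X (double knockout with DMXAA), levels rose with transcript length relative to the batch, with slopes from 0.1 to 0.36. Detected genes were as few as 15041 there, against 16887 or more in the other b2 libraries, and the summed level of 19 markers of other cell types, mostly Alb, reached 27.1 CPM; the part of these features in the results was not tested beyond leaving the libraries out. Of those 19 markers 4 were at 0 in every library and 16 stayed under 1 CPM, while the macrophage markers Csf1r (1370 to 2820 CPM) and Lyz2 (3170 to 7730 CPM) were high in all, and Mertk did not pass 0.0582 CPM; the summed level of the 10 macrophage markers in b2 was 11000 to 13100 CPM in control cells and 7340 to 9870 CPM in the edited lines, and its part in the b2 differences between lines was not tested. As a check of the labels, Sgk1 with DMXAA averaged 51.3 CPM in b1 control cells, 4.87 CPM in the b1 double knockout, 34.2 CPM in b2 control cells and 4.18 CPM in the SGK1 knockout. Sgk3 mRNA was not lower in the SGK3 knockout (90.1 CPM at rest against 95.9 CPM in control cells), so this mRNA does not check that label. Ifnb1, the interferon gene that STING induces, was at 0 at rest and averaged 38.3 CPM with DMXAA in b1 control cells.

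The upstream sequence of a few members shows which of them carry the letters that ATF4 and C/EBP proteins are known to bind. The 250 bases before the RefSeq start site (build GRCm38.p6) were available for 30 of the 34 members and were searched on both strands for TGATGNAA, the composite motif of an amino acid response element. The motif lay in 7 of the 30 members, or 23.3%, and in 3.91% of all 27025 genes with a window: Asns, Chac1, Nupr1, Pck2, Pycr1, Slc7a11 and Vldlr. A match is a description of letters, and a missing match says nothing about ATF4 at that gene, since known elements also lie further away. The windows of Slc7a11, Nupr1, Chac1 and Asns are shown because these members hold the motif and their values are described later: Slc7a11 and Nupr1 between lines, Chac1 between batches, and Asns as a classic ATF4 target. Capitals mark the motif, and every window is written 5′ to 3′ on the strand of the gene. Slc7a11 (chr3:50443614-50443863, minus strand) holds the motif at 66 and, on the opposite strand, at 47 bases before the start, Nupr1 (chr7:126625471-126625720, minus strand) at 110, Chac1 (chr2:119350992-119351241, plus strand) at 193 and Asns (chr6:7693210-7693459, minus strand) at 23.
Slc7a11: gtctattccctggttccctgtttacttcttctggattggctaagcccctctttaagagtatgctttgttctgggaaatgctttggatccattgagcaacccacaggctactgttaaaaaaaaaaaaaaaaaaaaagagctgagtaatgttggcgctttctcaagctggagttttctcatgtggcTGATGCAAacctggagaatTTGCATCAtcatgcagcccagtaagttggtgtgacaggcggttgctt
Nupr1: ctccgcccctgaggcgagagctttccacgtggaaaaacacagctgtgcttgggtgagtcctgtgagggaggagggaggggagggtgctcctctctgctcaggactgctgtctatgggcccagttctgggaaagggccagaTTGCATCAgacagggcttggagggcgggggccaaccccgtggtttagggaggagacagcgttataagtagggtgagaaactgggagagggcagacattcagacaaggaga
Chac1: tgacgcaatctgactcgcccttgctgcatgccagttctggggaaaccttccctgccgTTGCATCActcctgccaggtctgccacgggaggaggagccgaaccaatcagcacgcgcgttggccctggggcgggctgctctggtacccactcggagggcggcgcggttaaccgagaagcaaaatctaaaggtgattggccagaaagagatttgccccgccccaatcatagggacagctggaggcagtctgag
Asns: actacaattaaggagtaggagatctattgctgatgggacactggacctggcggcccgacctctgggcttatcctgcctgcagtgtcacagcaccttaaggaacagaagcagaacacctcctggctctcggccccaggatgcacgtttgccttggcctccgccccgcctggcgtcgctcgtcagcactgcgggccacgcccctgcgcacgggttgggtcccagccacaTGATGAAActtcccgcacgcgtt

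Ppp1r15a, the member with the largest response, has no TGATGNAA in its window. The window (chr7:45526269-45526518, minus strand) instead holds the CREB/ATF full site TGACGTCA, which reads the same on both strands, 12 bases before the start; this motif was searched only after the window had been read. It was the only one of the 30 members with that motif (3.33%), and 1.77% of all genes had it. Capitals mark the site.
Ppp1r15a: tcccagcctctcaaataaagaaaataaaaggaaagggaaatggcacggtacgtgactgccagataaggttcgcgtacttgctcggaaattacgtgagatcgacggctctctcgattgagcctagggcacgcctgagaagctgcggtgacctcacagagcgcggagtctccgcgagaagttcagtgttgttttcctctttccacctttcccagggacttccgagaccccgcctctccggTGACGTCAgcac

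At rest, members spanned a wide range of length-corrected levels. In b1 control cells 10 members were above 100 TPM (levels scaled for transcript length and library size), 13 from 10 to 100 and 11 below 10. The serine and glycine enzymes led, with Shmt2 at 493, Phgdh at 452 and Psat1 at 426 TPM, ahead of Atf4 at 290 TPM. The death- and feedback-linked targets were low: Ddit3 (CHOP) at 15.3, Chac1 at 6.82 and Trib3 at 4.46 TPM. Vldlr, a lipoprotein receptor gene, had 0 counts in all 50 libraries, which allows at most 0.107 to 0.207 CPM if 3 read pairs of 4 counts each are taken as the limit (counting error only), and it was not tested. The other 33 members passed the filter on low counts in every fit.

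DMXAA raised a partly shared set of members. In b1 control cells 10 of 33 tested members rose and 5 fell, where edgeR's quasi-likelihood test called 17.9% of all genes higher and 17.4% lower at a Benjamini-Hochberg adjusted p under 0.05; in b2 control cells 6 rose and 0 fell, where 2.52% of all genes were higher and 1.46% lower. For that 0, edgeR gave 2 members lower at an unadjusted p under 0.05 and DESeq2 called 2. The share of members higher was above that of all genes in both batches, while the share lower in b1 was close to it. The median member log2 fold change was -0.01 in b1 and 0.21 in b2, and the median over all genes lay between -0.02 and 0.02 in every comparison. The members called higher in all 5 responses tested (control cells in both batches, each single knockout, and the double knockout in b2) were 4: Ppp1r15a, Slc38a2, Slc3a2 and Sesn2. The calls in the noisier b2 moved with the method, so a member outside these 4 may still have risen. By limma voom 10, 14 and 10 members were higher in the b2 control, SGK1-knockout and double-knockout responses, against 6, 7 and 5 by edgeR. The share of all genes by voom was not counted. The 12 tested members Aldh1l2, Asns, Cth, Ddit3, Pck2, Phgdh, Psat1, Shmt2, Slc7a5, Stc2, Trib3 and Xpot were called in none of the 5.

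Ppp1r15a encodes GADD34, the subunit that brings protein phosphatase 1 to phosphorylated eIF2 (chromosome 7, 45172340 to 45175692, minus strand, GRCm39; ENSMUSG00000040435.13). Its resting level in b1 control cells was 20, 15.5 and 15.7 CPM, and with DMXAA it was 519, 496, 510, 499 and 533 CPM. The groups did not overlap, and the 5 treated libraries were close to one another. The change was 29.9-fold (log2 4.90 ± 0.17 SE, edgeR adjusted p = 5.28e-16). In b2 control cells it went from 14.5, 12.7 and 14.2 CPM to 178, 253, 227 and 291 CPM, a 17.1-fold change (log2 4.10 ± 0.24, edgeR adjusted p = 1.83e-09). The resting levels of the batches were alike and the treated levels were not, but the difference between the batches' responses missed the threshold (log2 0.80 ± 0.25, edgeR adjusted p = 0.0784). The edited lines also raised it: 18.9-fold in the SGK3 knockout, 27.9-fold in the SGK1 knockout and 11.1-fold in the b2 double knockout.

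The other members that rose in every response were the transporter members Slc38a2 and Slc3a2 and the mTORC1 brake Sesn2. Slc38a2 encodes SNAT2, a sodium-coupled carrier of small neutral amino acids. It measured 621, 560 and 545 CPM at rest and 1320, 1420, 1270, 1180 and 1200 CPM with DMXAA in b1 control cells, with no overlap (log2 1.15 ± 0.08, edgeR adjusted p = 1.66e-12). In b2 it went from 580, 545 and 607 CPM to 1040, 1070, 1170 and 1100 CPM (log2 0.92 ± 0.09, edgeR adjusted p = 1.21e-06). Slc3a2 encodes CD98hc, the heavy chain that carries Slc7a5, Slc7a11 and related light chains to the cell surface. It went from 184, 166 and 167 CPM to 352, 385, 367, 339 and 361 CPM in b1 (log2 1.06 ± 0.08, edgeR adjusted p = 3.07e-12). In b2 it went from 180, 192 and 169 CPM to 270, 354, 275 and 344 CPM (log2 0.78 ± 0.14, edgeR adjusted p = 0.00172). Its light-chain partners did not move alike: Slc7a5 (log2 -0.01 in b1 and 0.09 in b2) and Slc7a11 (0.13 and 0.25) were not called in control cells.

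Sesn2 encodes sestrin 2, a leucine sensor that restrains mTORC1. In b1 control cells it rose from 17.1, 17.3 and 12.8 CPM to 28.3, 27.5, 26.6, 20.6 and 24.4 CPM (log2 0.69 ± 0.11, edgeR adjusted p = 1.01e-05), and in b2 from 14.1, 13.3 and 14.1 CPM to 22.3, 22.8, 25.0 and 24.3 CPM (log2 0.76 ± 0.14, edgeR adjusted p = 0.0014). The lowest treated library was above the highest resting one in each batch. The log2 change was 0.80 in the SGK3 knockout, 1.16 in the SGK1 knockout and 0.97 in the b2 double knockout.

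**Figure D1:**
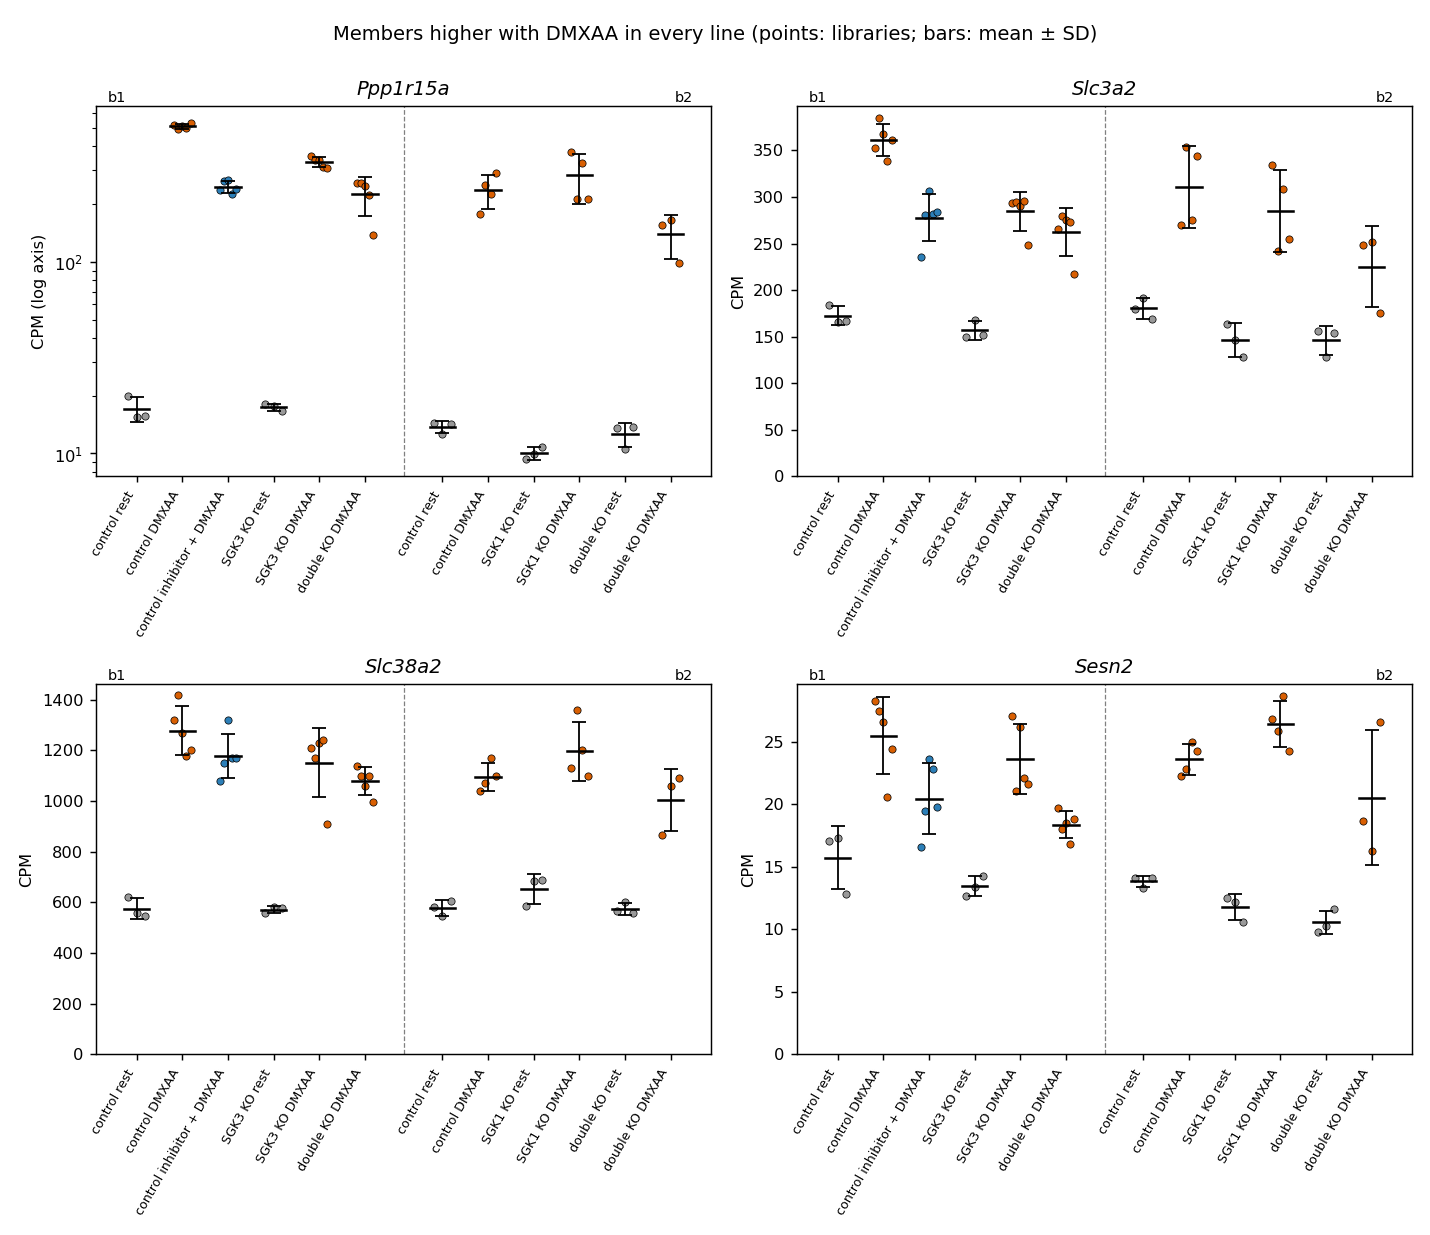
CPM of the 4 members that rose with DMXAA in all 5 responses, by group and batch (Ppp1r15a on a log axis); points are libraries, bars mean ± SD. Libraries given DMXAA alone do not overlap the resting libraries of their line and batch in any panel, whereas 1 library given inhibitor plus DMXAA (Sesn2 16.6 CPM) lies below resting control libraries 1 and 2, and treated Ppp1r15a in b1 is highest in control cells (511 CPM) and lower in the SGK3 knockout (331), the inhibitor group (247) and the double knockout (225).

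Atf4 mRNA itself rose modestly. In b1 control cells it went from 293, 254 and 254 CPM to 379, 357, 375, 376 and 375 CPM (log2 0.48 ± 0.04, edgeR adjusted p = 1.71e-10), with no overlap. In b2 it went from 224, 271 and 204 CPM to 336, 371, 319 and 382 CPM, also with no overlap, but the change was not called (log2 0.59 ± 0.18, edgeR adjusted p = 0.079). Across the other settings tried, the adjusted p of this b2 change lay between 9.79e-05 (limma voom) and 0.343 (without library C), with the 6 length-trend libraries left out giving 0.000223. Ddit3, which encodes the ATF4 partner and death-linked factor CHOP, measured 9.66, 5.92 and 5.81 CPM at rest and 5.89, 6.12, 7.34, 6.62 and 7.13 CPM with DMXAA in b1 (log2 -0.11 ± 0.13, edgeR adjusted p = 0.597). In b2 it measured 7.25, 5.56 and 2.88 CPM at rest and 6.89, 6.40, 5.14 and 6.04 CPM with DMXAA (log2 0.22 ± 0.27, edgeR adjusted p = 0.95). The groups overlapped in both batches, and the sign turned to 0.16 in b1 without resting library 1 and to -0.07 in b2 without library C.

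Trib3, a pseudokinase that ATF4 and CHOP induce and that feeds back on ATF4, measured 6.65, 3.49 and 4.11 CPM at rest and 4.32, 3.28, 3.51, 4.99 and 3.26 CPM with DMXAA in b1 (log2 -0.30 ± 0.22, edgeR adjusted p = 0.342). In b2 it measured 3.05, 5.71 and 4.74 CPM at rest and 6.56, 9.36, 7.61 and 6.99 CPM with DMXAA, where all treated libraries were higher but the change was not called (log2 0.76 ± 0.27, edgeR adjusted p = 0.175). Asns, asparagine synthetase and a classic ATF4 target, measured 151, 138 and 133 CPM at rest and 159, 161, 152, 160 and 138 CPM with DMXAA in b1 (log2 0.13 ± 0.06, edgeR adjusted p = 0.0768). In b2 it measured 158, 153 and 164 CPM at rest and 157, 170, 149 and 161 CPM with DMXAA (log2 0.00 ± 0.07, edgeR adjusted p = 1). Resting and treated Asns overlapped in both batches. The b1 change of Asns was called in 8 of 20 other settings, with an adjusted p from 0.00578 (length trend removed) to 0.553 (limma on log2(TPM + 1)). In other comparisons Asns was lower with the inhibitor, in the SGK3 knockout with DMXAA and in the SGK1 knockout at rest.

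Chac1 and Ddit4 fell in b1. Chac1 encodes an enzyme that degrades glutathione and is a standard marker of ATF4 activity. It went from 7.88, 5.37 and 4.52 CPM to 1.33, 1.31, 0.534, 0.706 and 1.43 CPM in b1 control cells, a 5.58-fold fall (log2 -2.48 ± 0.30, edgeR adjusted p = 4.26e-08). In b2 it went from 3.93, 6.61 and 5.31 CPM to 4.18, 5.49, 4.52 and 5.83 CPM (log2 -0.08 ± 0.31, edgeR adjusted p = 1). The fall thus separated the groups completely in b1 and was not seen in b2. The difference between the batches' control responses was itself called for Chac1, at log2 -2.41 ± 0.46 (edgeR adjusted p = 0.000795). It was the 1 member lower in b1 of 33, and 0 were higher, where edgeR called 1.4% of all genes lower and 1.81% higher; 2 members had an unadjusted p under 0.05 in the higher direction, and DESeq2 was not run for this contrast. In the rerun batch the DMXAA-treated libraries S, V and W had 6.51, 7.90 and 7.99 CPM of Chac1, with no control library to compare. Ddit4 (REDD1, another brake on mTORC1) went from 3.25, 3.33 and 4.30 CPM to 1.59, 1.51, 1.4, 1.04 and 1.4 CPM in b1 (log2 -1.39 ± 0.21, edgeR adjusted p = 2.37e-06). In b2 control cells Ddit4 already lay between 0.498 and 1.17 CPM at rest, and its response there was not called (log2 0.29 ± 0.92, edgeR adjusted p = 1).

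**Figure D2:**
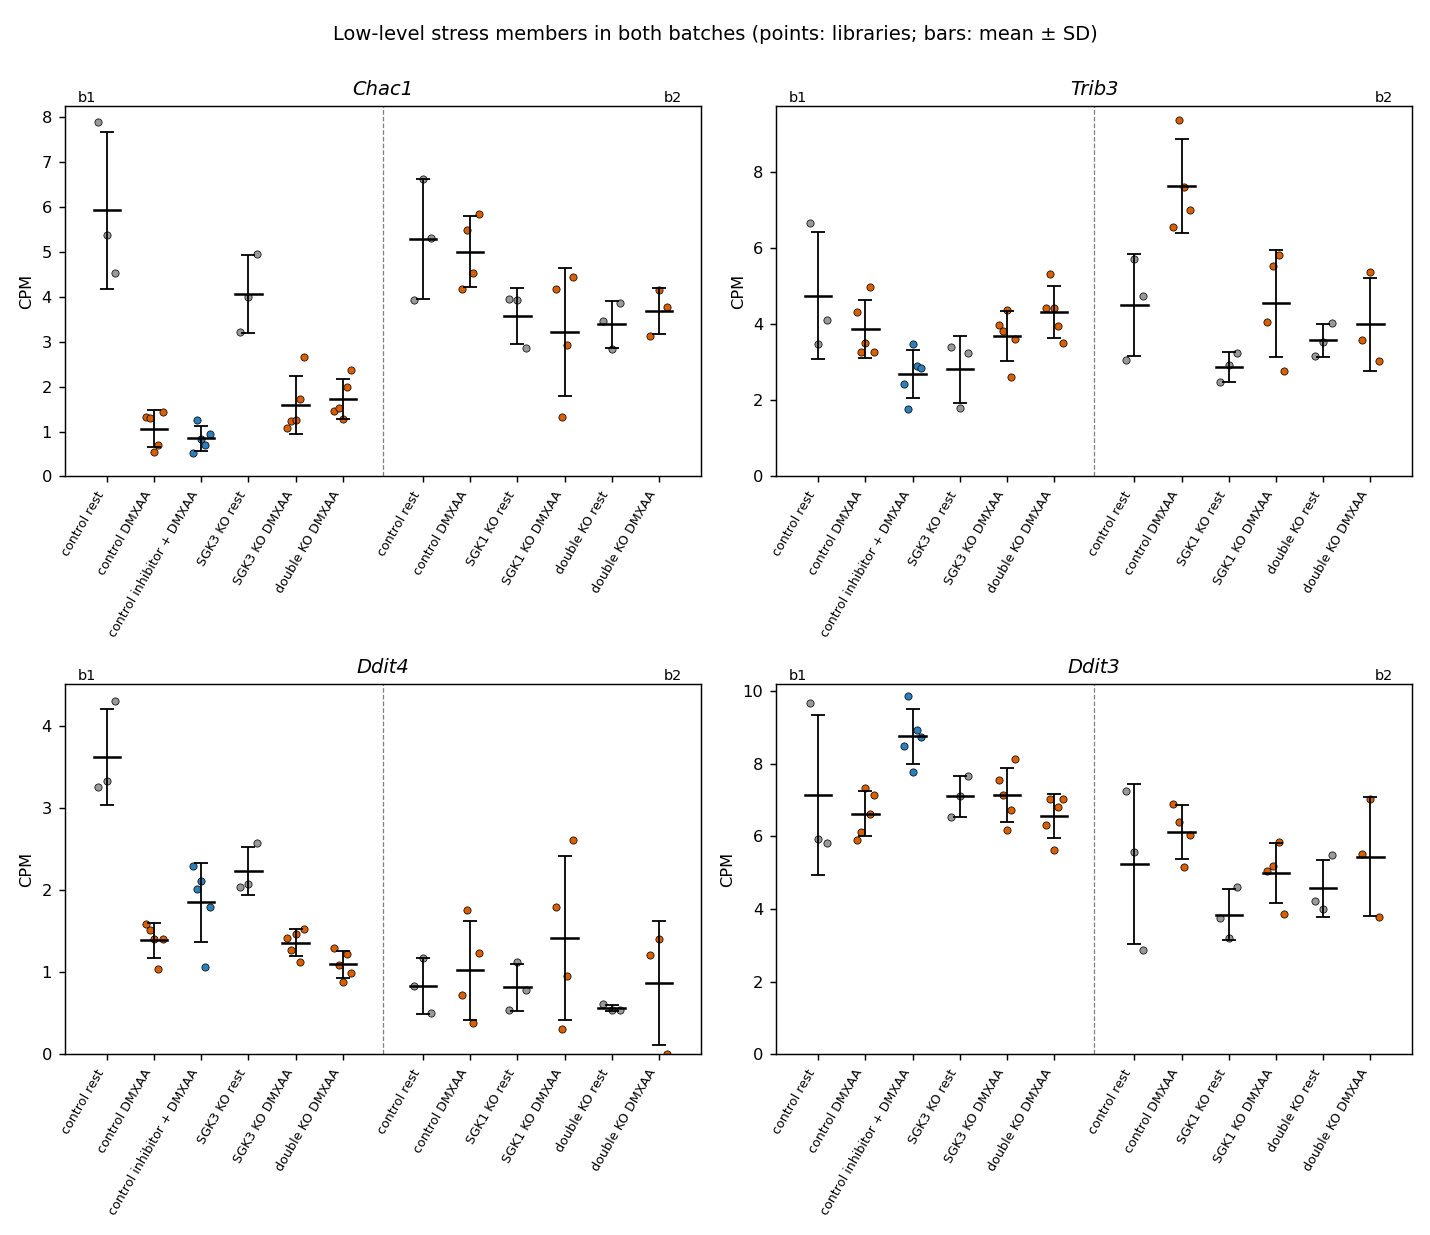
CPM of Chac1, Trib3, Ddit4 and Ddit3 by group and batch; points are libraries, bars mean ± SD. Chac1 of treated control cells averages 1.06 CPM in b1 and 5.01 CPM in b2, against 5.92 and 5.28 CPM at rest.

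The remaining calls in control cells were small. In b1 Mthfd2, the mitochondrial folate enzyme, rose by log2 0.35, as did the arginine and lysine carrier Slc7a1, while the glutamine carrier Slc1a5 rose by 0.30, Eif2ak3 by 0.20 and Atf5 by 0.18. Cebpg, a partner of ATF4, fell by 0.39, the proline-pathway enzyme Aldh18a1 by 0.23 and the alanine aminotransferase Gpt2 by 0.22. In b2 Mthfd2 (log2 0.48 ± 0.10, edgeR adjusted p = 0.00572) and Eif2ak3 (0.47 ± 0.11, 0.0163) rose. The calls of Eif2ak3 in both batches and of Atf5 and Gpt2 in b1 were each lost without 1 of at least 3 libraries (Eif2ak3 in b2 without A, B, L or M, adjusted p from 0.0513 to 0.0914). Mthfd2 went there from 158, 169 and 151 CPM to 217, 233, 209 and 236 CPM without overlap. By role, 4 of 7 transporters and 1 of 3 mitochondrial folate enzymes rose in b1. Of 7 amino acid synthesis enzymes 0 rose and 2 fell, where 17.9% of all genes were higher and 17.4% lower. In b2 the counts were 2 transporters, 1 folate enzyme and 0 synthesis enzymes, with none lower. Of all genes 2.52% were higher and 1.46% lower there. Differences between roles were not tested.

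The members that rose with DMXAA were counted in each edited line separately, and tests of the difference from the control response follow after these counts. In the SGK3 knockout 14 of 33 members rose and 4 fell, where 16.4% of all genes were higher and 13.7% lower. The transporters were 6 of the 14: besides Slc38a2 and Slc3a2 they were Slc7a1, Slc1a5, Slc7a11 and Slc1a4. The 5 largest changes there were those of Ppp1r15a (18.1, 17.6 and 16.6 CPM to 356, 339, 338, 312 and 309 CPM, log2 4.24 ± 0.17), Chac1 (3.22, 3.99 and 4.96 CPM to 1.08, 1.24, 1.26, 1.73 and 2.66 CPM, log2 -1.36 ± 0.30, edgeR adjusted p = 0.000575), Slc38a2 (557, 582 and 576 CPM to 1210, 1170, 1230, 1240 and 911 CPM, 2.01-fold), Slc3a2 (150, 168 and 152 CPM to 293, 295, 290, 296 and 248 CPM, log2 0.85 ± 0.08) and Sesn2 (12.7, 13.4 and 14.3 CPM to 27.1, 21.1, 26.2, 22.1 and 21.6 CPM, log2 0.80 ± 0.12). None of these groups overlapped. The calls of Slc7a11 and Slc1a5 were lost without resting library 3 (adjusted p = 0.0636 and 0.226) and without some other single libraries. Nupr1, a small stress-induced chromatin protein and ATF4 target, rose from 6.47, 7.84 and 9.71 CPM to 11.8, 14, 12.4, 14.4 and 15.6 CPM (log2 0.77 ± 0.14, edgeR adjusted p = 4.36e-05).

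In the SGK1 knockout 7 of 33 members rose and 1 fell, where 5.89% of all genes were higher and 5.28% lower. Ppp1r15a went from 9.34, 9.92 and 10.8 CPM to 374, 213, 329 and 214 CPM (log2 4.80 ± 0.25, edgeR adjusted p = 1.51e-10), Sesn2 from 12.5, 12.2 and 10.6 CPM to 26.8, 25.9, 28.7 and 24.3 CPM (1.16 ± 0.14), and Slc3a2 from 164, 147 and 128 CPM to 334, 242, 309 and 255 CPM (0.95 ± 0.14). Atf5, an ATF4-related factor, went from 32.0, 22.1 and 14.8 CPM to 48.4, 43.7, 44.0 and 38.2 CPM (0.91 ± 0.23, edgeR adjusted p = 0.0129), and the proline enzyme Pycr1 from 3.64, 3.06 and 4.44 CPM to 7.68, 4.13, 6.04 and 9.85 CPM with overlap (0.89 ± 0.28, 0.0491). Slc38a2 and Atf4 made up the 7. Without the length-trend libraries, which are 4 of these 7 libraries and leave D alone at rest (assumed to vary like the other groups), 5 rose and 0 fell. The calls of Atf5 (log2 0.52, adjusted p = 0.119) and Pycr1 (0.91, 0.109) were then lost. The Atf5 call was also lost without E or F alone (0.0604 and 0.0801), and the Pycr1 call without any single library but P (0.0614 to 0.18).

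In the b2 double knockout 5 of 33 members rose and 0 fell, where 4.31% of all genes were higher and 2.45% lower; for the 0, edgeR had 2 members at an unadjusted p under 0.05 and DESeq2 called 1. Ppp1r15a went from 13.6, 10.5 and 13.8 CPM to 156, 165 and 98.5 CPM (log2 3.48 ± 0.24, edgeR adjusted p = 1.21e-08), and Sesn2 from 9.76, 10.3 and 11.6 CPM to 18.7, 16.3 and 26.6 CPM (0.97 ± 0.15). Slc7a11, which encodes xCT, the cystine carrier that supplies glutathione synthesis, went from 27.3, 35.3 and 24.9 CPM to 43.7, 53.4 and 68.9 CPM (0.93 ± 0.20, edgeR adjusted p = 0.00559). Slc38a2 went from 567, 602 and 557 CPM to 866, 1060 and 1090 CPM, and Slc3a2 from 156, 128 and 154 CPM to 248, 252 and 175 CPM. Resting and treated libraries did not overlap for any of the 5. These members were picked as called, and the share of all genes without overlap was not counted. Without the length-trend libraries 8 members rose and 0 fell, but without H or U alone the Slc3a2 call was lost (adjusted p = 0.0582 and 0.0597). With the rerun double-knockout libraries V and W added in a fit with batch b3, Slc7a11 was no longer called (log2 0.60, edgeR adjusted p = 0.32).

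Tests of whether a line's DMXAA response differed from that of control cells gave few calls. For the SGK3 knockout 1 of 33 members responded more and 0 less, where 0.59% of all genes were higher and 0.448% lower; for the 0, edgeR had 1 member at an unadjusted p under 0.05 and DESeq2 called 1. The member was Slc1a4 (ASCT1, a carrier of serine and alanine), which went from 10.1, 10.9 and 9.42 CPM to 15.7, 15.7, 15.7, 14.8 and 18.1 CPM in the SGK3 knockout. In control cells it measured 17.8, 18.1 and 15.3 CPM at rest and 17.4, 17.7, 16.7, 16.8 and 14.7 CPM with DMXAA. The difference was log2 0.69 ± 0.15 (edgeR adjusted p = 0.0145), and it was lost in 1 fit over both batches (adjusted p = 0.139) and without SGK3-knockout resting library 1 or 3. The treated levels of the 2 lines overlapped, and the resting levels did not. For the SGK1 knockout 0 members were higher and 0 lower, where 0.277% and 0.174% of all genes were; edgeR had 3 and 2 members at an unadjusted p under 0.05, and DESeq2 called 0 and 0. For the double knockout in b2 0 were higher and 0 lower, where 0.517% and 0.265% of all genes were; edgeR had 2 and 1 at an unadjusted p under 0.05, and DESeq2 called 1 and 0. For Ppp1r15a the difference in response was log2 -0.66 ± 0.20 in the SGK3 knockout (edgeR adjusted p = 0.134), 0.71 ± 0.29 in the SGK1 knockout (0.464) and -0.62 ± 0.30 in the double knockout (0.615), so none was called.

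At rest, calls between lines fell on other members than the 4 that rose in all 5 responses. Nupr1, Slc1a4, Psph, Pycr1 and Atf5 were each lower at rest in 1 line and rose in 1 or more responses. In the SGK3 knockout 0 of 33 members were higher and 10 lower than in control cells, where 5.84% of all genes were higher and 4.6% lower; for the 0, edgeR had 1 member at an unadjusted p under 0.05 and DESeq2 called 1. The 10 were Stc2, Nupr1, Aldh1l2, Slc1a4, Cth, Pycr1, Pck2, Aldh18a1, Psat1 and Psph, of which 4 are amino acid synthesis enzymes. Stc2 encodes stanniocalcin 2, a secreted glycoprotein induced by ATF4 (chromosome 11, 31307307 to 31320074, minus strand). It measured 9.76, 7.35 and 9.44 CPM in control cells and 0.966, 0.757 and 1.10 CPM in the SGK3 knockout, 9.38-fold lower (log2 -3.23 ± 0.22, edgeR adjusted p = 1.23e-12). Nupr1 measured 19.4, 13.4 and 13.6 CPM in control cells and 6.47, 7.84 and 9.71 CPM in the knockout (log2 -0.94 ± 0.15, edgeR adjusted p = 2.35e-05). Aldh1l2, a mitochondrial folate enzyme, measured 29.3, 26.7 and 29.4 CPM against 16, 16 and 18.4 CPM (log2 -0.75 ± 0.09, edgeR adjusted p = 1.2e-07). Slc1a4 differed by log2 -0.74 ± 0.12 (edgeR adjusted p = 2.83e-05), and Cth, the transsulfuration enzyme that makes cysteine, measured 5.34, 3.13 and 4.48 CPM against 2.61, 3.04 and 2.49 CPM (log2 -0.66 ± 0.21, edgeR adjusted p = 0.0369). Of these 5, picked as the largest called changes, none overlapped. Without control resting library 1 the count went from 10 to 6 (Cth then had an adjusted p of 0.256), and the Cth call was also lost without control library 3 or knockout library 1 or 3.

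In b2 fewer members differed at rest, and Stc2 went the other way. It measured 1.85, 3.05 and 3.85 CPM in control cells, 6.75, 7.48 and 7.53 CPM in the SGK1 knockout (log2 1.32 ± 0.24, edgeR adjusted p = 0.00265) and 6.71, 5.17 and 5.79 CPM in the double knockout (2.01-fold, 0.0208). The control cells of b2 were themselves lower than those of b1, and a direct test between batches at rest was not run. In the SGK1 knockout 1 member was higher and 3 were lower, where 3.28% of all genes were higher and 3.15% lower. The 3 were Atf5 (38.2, 45.5 and 42.7 CPM against 32.0, 22.1 and 14.8 CPM, log2 -0.87 ± 0.24, edgeR adjusted p = 0.0384), the mitochondrial PEPCK gene Pck2 (44.3, 46.5 and 47.7 CPM against 40.3, 27.7 and 25.6 CPM, -0.56 ± 0.16, 0.0466) and Asns (158, 153 and 164 CPM against 137, 140 and 114 CPM, -0.28 ± 0.08, 0.0404). The lowest Atf5 and Pck2 values were those of libraries E and F. The calls of these 3 members were lost without any single library but D, and without D 11 members were called. The share of all genes called without D was not counted. Without the length-trend libraries no member was called in this comparison and Stc2 had a log2 difference of 1.21 (adjusted p = 0.0789), but that fit leaves library D alone in the resting SGK1 knockout, which is assumed to vary like the other groups. In the double knockout 1 was higher, Stc2, and 1 lower, the serine enzyme Psat1 (647, 627 and 683 CPM against 547, 538 and 545 CPM, log2 -0.26 ± 0.07, edgeR adjusted p = 0.0312), where 1.16% of all genes were higher and 1.87% lower. The Stc2 call of the double knockout was lost without G, I, A or B (log2 from 0.78 to 1.04), and the Psat1 call without any single library of the 6 (adjusted p from 0.0509 to 0.16).

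Under DMXAA, Ppp1r15a was lower in the SGK3 knockout, in both sets of double-knockout libraries and in inhibitor-treated control cells, but not called in the SGK1 knockout. Against 519, 496, 510, 499 and 533 CPM in b1 control cells, the SGK3 knockout had 356, 339, 338, 312 and 309 CPM (log2 -0.63 ± 0.11, edgeR adjusted p = 0.000261). The double knockout had 259, 257, 249, 223 and 138 CPM (log2 -1.18 ± 0.12, edgeR adjusted p = 4.17e-08), and the inhibitor group had 237, 263, 267, 226 and 241 CPM (log2 -1.05 ± 0.12, edgeR adjusted p = 6.45e-07). No library of these groups reached the lowest DMXAA-treated control library, and all were far above rest. These 3 comparisons share the same 5 control libraries and are not independent. In b2 the double knockout had 156, 165 and 98.5 CPM against 178, 253, 227 and 291 CPM in control cells (log2 -0.75 ± 0.21, edgeR adjusted p = 0.0196), and the call was lost without library X (-0.55, 0.134), L (-0.72, 0.051) or N (-0.64, 0.0656). The SGK1 knockout had 374, 213, 329 and 214 CPM (log2 0.25 ± 0.19, edgeR adjusted p = 0.471), which overlapped control cells.

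With DMXAA, 2 members were higher and 11 lower in the SGK3 knockout than in control cells, where 13.3% of all genes were higher and 9.59% lower. In the b1 double knockout 2 were higher and 9 lower, where 14.5% and 11.9% of all genes were. The 2 higher members were the same in both, Cebpg and Slc7a11. Stc2 was at 1.13, 0.621, 0.921, 1.58 and 0.885 CPM in the SGK3 knockout against 6.39, 6.88, 6.94, 6.43 and 8.61 CPM in control cells (log2 -2.78 ± 0.17, edgeR adjusted p = 1.64e-14). The b1 double knockout had 6.76, 7.31, 8.25, 6.13 and 6.90 CPM of Stc2 (log2 0.01 ± 0.15, edgeR adjusted p = 0.978), so the low Stc2 of the SGK3 line was not seen in the other line labelled as an SGK3 knockout. Aldh1l2 was lower in both lines, at log2 -0.66 ± 0.07 in the SGK3 knockout (17.8, 16.3, 17.6, 17.7 and 18.9 CPM against 29.3, 28.8, 28.8, 26 and 26.7 CPM) and at -0.25 ± 0.07 in the double knockout. Cth was at 4.67, 4.28, 3.77, 2.33 and 3.43 CPM in the SGK3 knockout (log2 -0.49 ± 0.16, edgeR adjusted p = 0.0234), a call lost without SGK3-knockout library 4 or 5 or control library 5 (0.0546 to 0.0893). It was at 3.24, 3.26, 3.17, 2.62 and 2.95 CPM in the double knockout against 5.02, 5.05, 5, 4.94 and 6 CPM in control cells (log2 -0.77 ± 0.16, edgeR adjusted p = 0.000396).

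Pycr1 was at 5.88, 3.86, 6.14, 6.22 and 5.75 CPM in the SGK3 knockout with DMXAA against 8.84, 7.76, 7.37, 7.91 and 7.80 CPM (log2 -0.51 ± 0.12, edgeR adjusted p = 0.00136), with no overlap. Nupr1 was at 10.2, 10.8, 11.2, 12.5 and 10.3 CPM in the double knockout against 14.7, 16.8, 18.5, 19.8 and 18.4 CPM (log2 -0.68 ± 0.11, edgeR adjusted p = 2.08e-05), also with no overlap. In the double knockout Sesn2 was at 19.7, 18, 18.5, 16.8 and 18.8 CPM against 28.3, 27.5, 26.6, 20.6 and 24.4 CPM in control cells (log2 -0.47 ± 0.10, edgeR adjusted p = 0.000319). Slc3a2 was lower in both lines, at log2 -0.34 ± 0.07 in the SGK3 knockout and, with 266, 280, 275, 273 and 217 CPM against 352, 385, 367, 339 and 361 CPM, at -0.46 ± 0.07 in the double knockout (edgeR adjusted p = 2.54e-06). Psat1 was lower in the DMXAA-treated cells of all 3 edited lines: log2 -0.19 in the SGK3 knockout, -0.26 in the SGK1 knockout, and -0.15 (b1) and -0.43 (b2) in the double knockout. Atf4 mRNA was called in none of these comparisons, with log2 differences of 0.02 ± 0.04 and 0.00 ± 0.04 in b1 and of -0.28 ± 0.16 and -0.34 ± 0.18 in b2 for the single and double knockouts.

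Cebpg and Slc7a11 were each higher than in control cells in 4 of the 5 comparisons under DMXAA: Cebpg in the SGK3 knockout, both sets of double-knockout libraries and the inhibitor group, but not called in the SGK1 knockout, and Slc7a11 in all edited lines but not called with the inhibitor. Comparisons within a batch share the same treated control libraries and are not independent. Cebpg fell in b1 control cells from 52.7, 44.4 and 48.4 CPM to 40.5, 36.4, 35.6, 36.1 and 37.3 CPM. In the SGK3 knockout it was at 54.2, 50.8 and 54.8 CPM at rest and at 49.7, 47.9, 46.3, 46.2 and 63.5 CPM with DMXAA. The treated level was above that of treated control cells (log2 0.45 ± 0.07, edgeR adjusted p = 6.9e-06). Cebpg was at 52.0, 44.3, 44.5, 51.6 and 53.7 CPM in the b1 double knockout (0.41 ± 0.07, edgeR adjusted p = 2.58e-05). In b2 it was at 46.8, 44.4 and 48.5 CPM in the double knockout against 31.0, 30.0, 32.5 and 30.7 CPM in control cells (0.59 ± 0.08, edgeR adjusted p = 4.34e-05). No treated control library reached the lowest double-knockout library in either batch. The test of a different DMXAA response did not call Cebpg in the SGK3 knockout. In the b2 double knockout it missed the threshold (log2 0.50 ± 0.12, edgeR adjusted p = 0.0653). Slc7a11 was at 24.7, 22.6, 27.7, 24.9 and 27.2 CPM in the SGK3 knockout and 25.5, 29.9, 25.4, 27.9 and 21.3 CPM in the b1 double knockout, against 18.8, 23.5, 19.6, 19.0 and 19.4 CPM in control cells, with some overlap (log2 0.34 ± 0.08 and 0.38 ± 0.08, edgeR adjusted p = 0.00188 and 0.000598).

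In b2 with DMXAA, 2 members were higher and 3 lower in the SGK1 knockout, where 4.66% of all genes were higher and 4.07% lower. In the double knockout 2 were higher and 7 lower, where 6.43% and 6.41% of all genes were. Stc2 was at 11.6, 11.1, 11.8 and 10.9 CPM in the SGK1 knockout against 4.76, 5.52, 3.35 and 4.11 CPM in control cells (log2 1.36 ± 0.21, edgeR adjusted p = 0.00016), a 2.56-fold difference without overlap. Slc7a11 was at 46.2, 71.6, 48.9 and 67.7 CPM in the SGK1 knockout and 43.7, 53.4 and 68.9 CPM in the double knockout against 34.4, 32.5, 35.0 and 38.2 CPM in control cells (log2 0.74 ± 0.17 and 0.67 ± 0.18, edgeR adjusted p = 0.00817 and 0.0187). The highest Slc7a11 values were those of the length-trend libraries P, R and X. Without all 6 of those libraries the SGK1-knockout difference was 0.44 (adjusted p = 0.052), and without X alone the double-knockout difference was 0.48 (0.158); with batch b3 added the calls of both lines were lost, at 0.63 (0.224) in the SGK1 knockout and 0.33 (0.603) in the double knockout. The double-knockout call of Slc7a11 was not lost when all 6 length-trend libraries were left out together. Rerun libraries V and W had 31.7 and 21.1 CPM of Slc7a11.

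The members lower in the SGK1 knockout were Psat1 (577, 510, 525 and 582 CPM against 673, 666, 645 and 648 CPM, log2 -0.26 ± 0.06, edgeR adjusted p = 0.00493), Mthfd2 (181, 175, 197 and 153 CPM against 217, 233, 209 and 236 CPM, -0.34 ± 0.09, 0.0237) and Slc1a5 (468, 418, 451 and 448 CPM against 485, 560, 502 and 536 CPM, -0.22 ± 0.06, 0.0257). The groups did not overlap for any of the 3, but without the length-trend libraries Psat1 was the 1 member lower, and the calls of Mthfd2 and Slc1a5 were each lost without L, N, P or R alone (adjusted p from 0.0544 to 0.116) and that of Slc1a5 also without Q (0.0511). In the double knockout the 7 lower members included Trib3 (3.58, 5.38 and 3.04 CPM against 6.56, 9.36, 7.61 and 6.99 CPM, log2 -0.92 ± 0.27, edgeR adjusted p = 0.0289), Mthfd2 (178, 172 and 142 CPM, -0.44 ± 0.10, 0.00549), Slc3a2 (248, 252 and 175 CPM against 270, 354, 275 and 344 CPM, -0.46 ± 0.14, 0.0361), Slc7a5, Slc1a5, Psat1 and Ppp1r15a. Library X was the lowest for Trib3, Mthfd2 and Slc3a2. The Trib3 call was lost without T, X, L or M (adjusted p from 0.0507 to 0.162). Without X the calls of Mthfd2 (adjusted p = 0.0514), Slc3a2 (0.239) and Slc1a5 (0.0929) were lost, without N that of Slc3a2 (0.104), without L those of Slc3a2 (0.121), Slc1a5 (0.0656) and Slc7a11 (0.0571), and without T or U that of Slc7a5 (0.0711 and 0.0591), and U also that of Slc1a5 (0.0531). Without the length-trend libraries 2 members were higher and 5 lower in this comparison.

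**Figure D3:**
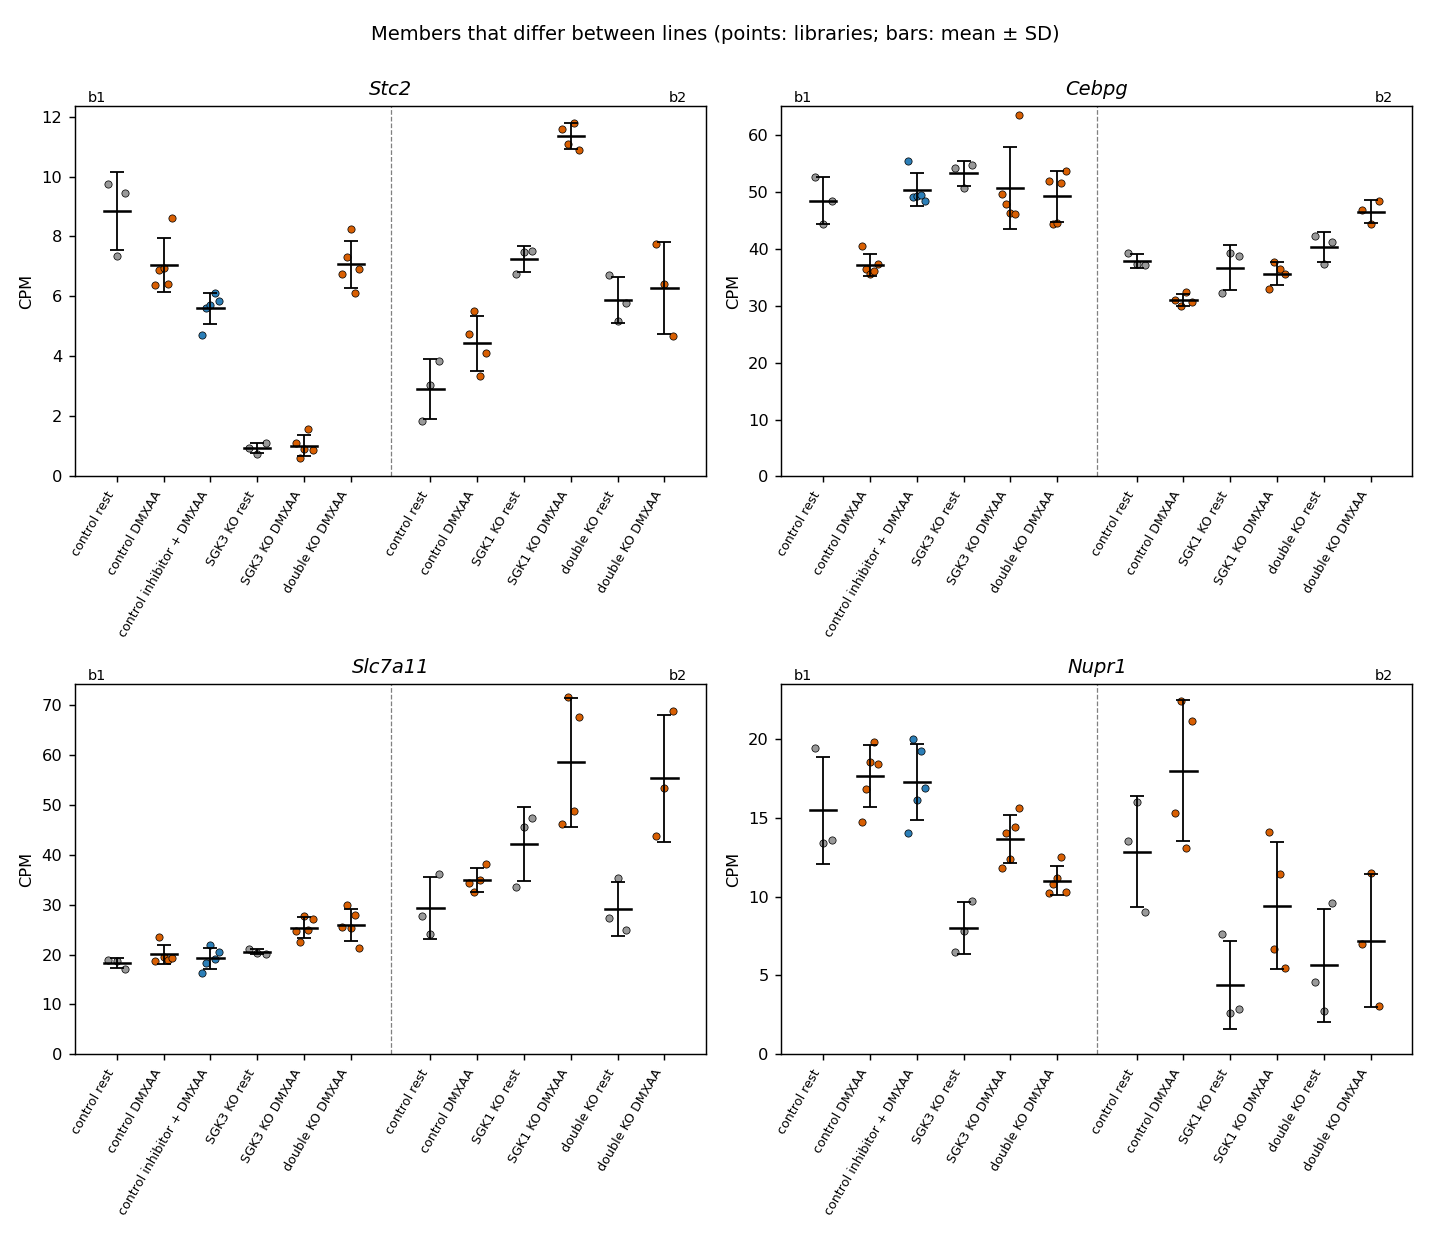
CPM of Stc2, Cebpg, Slc7a11 and Nupr1 by group and batch; points are libraries, bars mean ± SD. Stc2 averages 0.939 and 1.03 CPM in the SGK3 knockout and 11.4 CPM in the DMXAA-treated SGK1 knockout, and treated control cells have the lowest mean Cebpg of each batch (37.2 and 31.0 CPM).

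The double knockout with DMXAA was present in both batches, so its difference from control cells could be compared directly between them. Of 33 members 3 had a higher (more positive) difference from control cells in b1 than in b2 and 0 a lower one, where 4.38% of all genes were higher and 2.89% lower; for the 0, edgeR had 0 members at an unadjusted p under 0.05, and DESeq2 was not run. They were Trib3 (log2 0.16 in b1 and -0.92 in b2, batch difference 1.10 ± 0.34, edgeR adjusted p = 0.0359), Mthfd2 (batch difference 0.41 ± 0.10, 0.00756) and Psat1 (-0.15 and -0.43, batch difference 0.29 ± 0.06, 0.0024). Without library X the calls of Trib3 (0.95, adjusted p = 0.138) and Mthfd2 (0.34, 0.0528) were lost, and that of Trib3 also without T, L, double-knockout b1 library 1, 2 or 3, or control b1 library 2, 3 or 5 (0.0504 to 0.0966). The direction of Ppp1r15a, Cebpg, Slc7a11, Slc3a2 and Psat1 was the same in both batches.

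Inhibitor pretreatment lowered several transporters. In control cells given Sanofi-14h before DMXAA, 2 of 33 members were higher and 10 lower than with DMXAA alone, where 10.6% of all genes were higher and 10.1% lower. By role, 5 of 7 amino acid transporters were lower and 0 higher, and all 7 had negative fold changes. After Ppp1r15a the largest change was in Slc1a4, at 8.35, 11.2, 12, 12.1 and 12.7 CPM against 17.4, 17.7, 16.7, 16.8 and 14.7 CPM (log2 -0.57 ± 0.09, edgeR adjusted p = 2.8e-05). Slc7a1 was at 219, 259, 294, 260 and 268 CPM against 338, 409, 380, 329 and 322 CPM (log2 -0.46 ± 0.06, edgeR adjusted p = 2.29e-06), where resting cells had 285, 286 and 265 CPM. Slc7a5 (LAT1, the carrier of leucine and other large amino acids) was at 172, 211, 228, 201 and 225 CPM against 288, 303, 280, 243 and 247 CPM (log2 -0.39 ± 0.07, edgeR adjusted p = 5.44e-05). The groups did not overlap for these 3. Resting control cells had 17.8, 18.1 and 15.3 CPM of Slc1a4 and 279, 285 and 254 CPM of Slc7a5. Every inhibitor library lay below these resting levels, and neither member was called in the b1 control response to DMXAA. Slc3a2 and Slc1a5 were lower by log2 values of -0.38 and -0.27, and Mthfd2, Sesn2, Aldh18a1 and Asns were the other lower members (-0.28, -0.32, -0.25 and -0.22). The Sesn2 call was lost without inhibitor library 1 (adjusted p = 0.0637) or DMXAA library 1 (0.0534).

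The members that rose with the inhibitor were Cebpg and Ddit3. Cebpg was at 55.5, 49.2, 49.3, 49.5 and 48.5 CPM against 40.5, 36.4, 35.6, 36.1 and 37.3 CPM (log2 0.44 ± 0.07, edgeR adjusted p = 2.01e-05). Ddit3 was at 8.47, 9.85, 7.78, 8.91 and 8.73 CPM against 5.89, 6.12, 7.34, 6.62 and 7.13 CPM (0.40 ± 0.12, 0.0117). Neither pair of groups overlapped. Stc2 (log2 -0.33 ± 0.15, edgeR adjusted p = 0.125), Aldh1l2 (-0.01), Nupr1 (-0.03) and Slc7a11 (-0.06) were not called with the inhibitor, whereas each was called in 1 or more knockout lines; these comparisons share control libraries, and no test between inhibitor and knockout was run. The effect of the inhibitor on resting cells was not measured in these libraries.

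**Figure D4:**
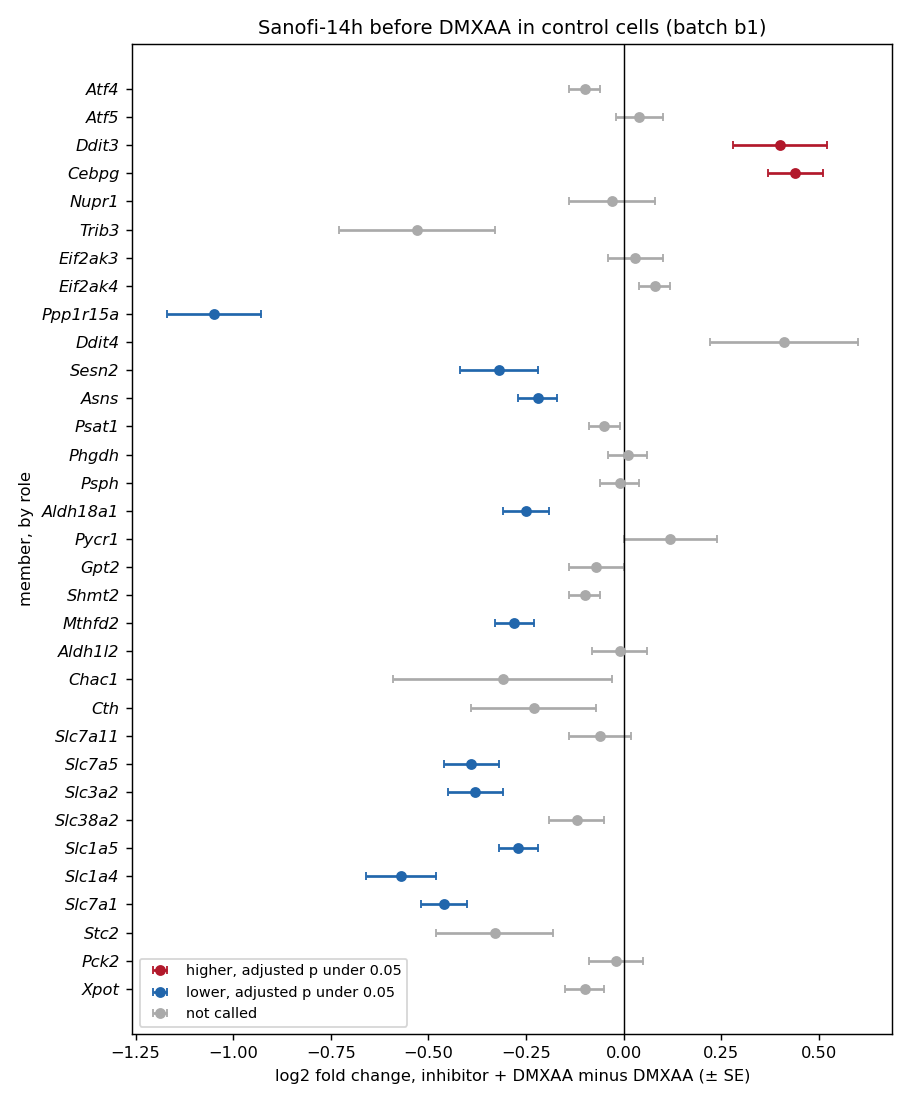
log2 fold change (± SE) of the 33 tested members between inhibitor plus DMXAA and DMXAA alone in b1 control cells, ordered by role; red and blue mark members past an adjusted p of 0.05. Ppp1r15a is the lowest at -1.05 and all 7 transporters lie below 0.

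**Figure D5:**
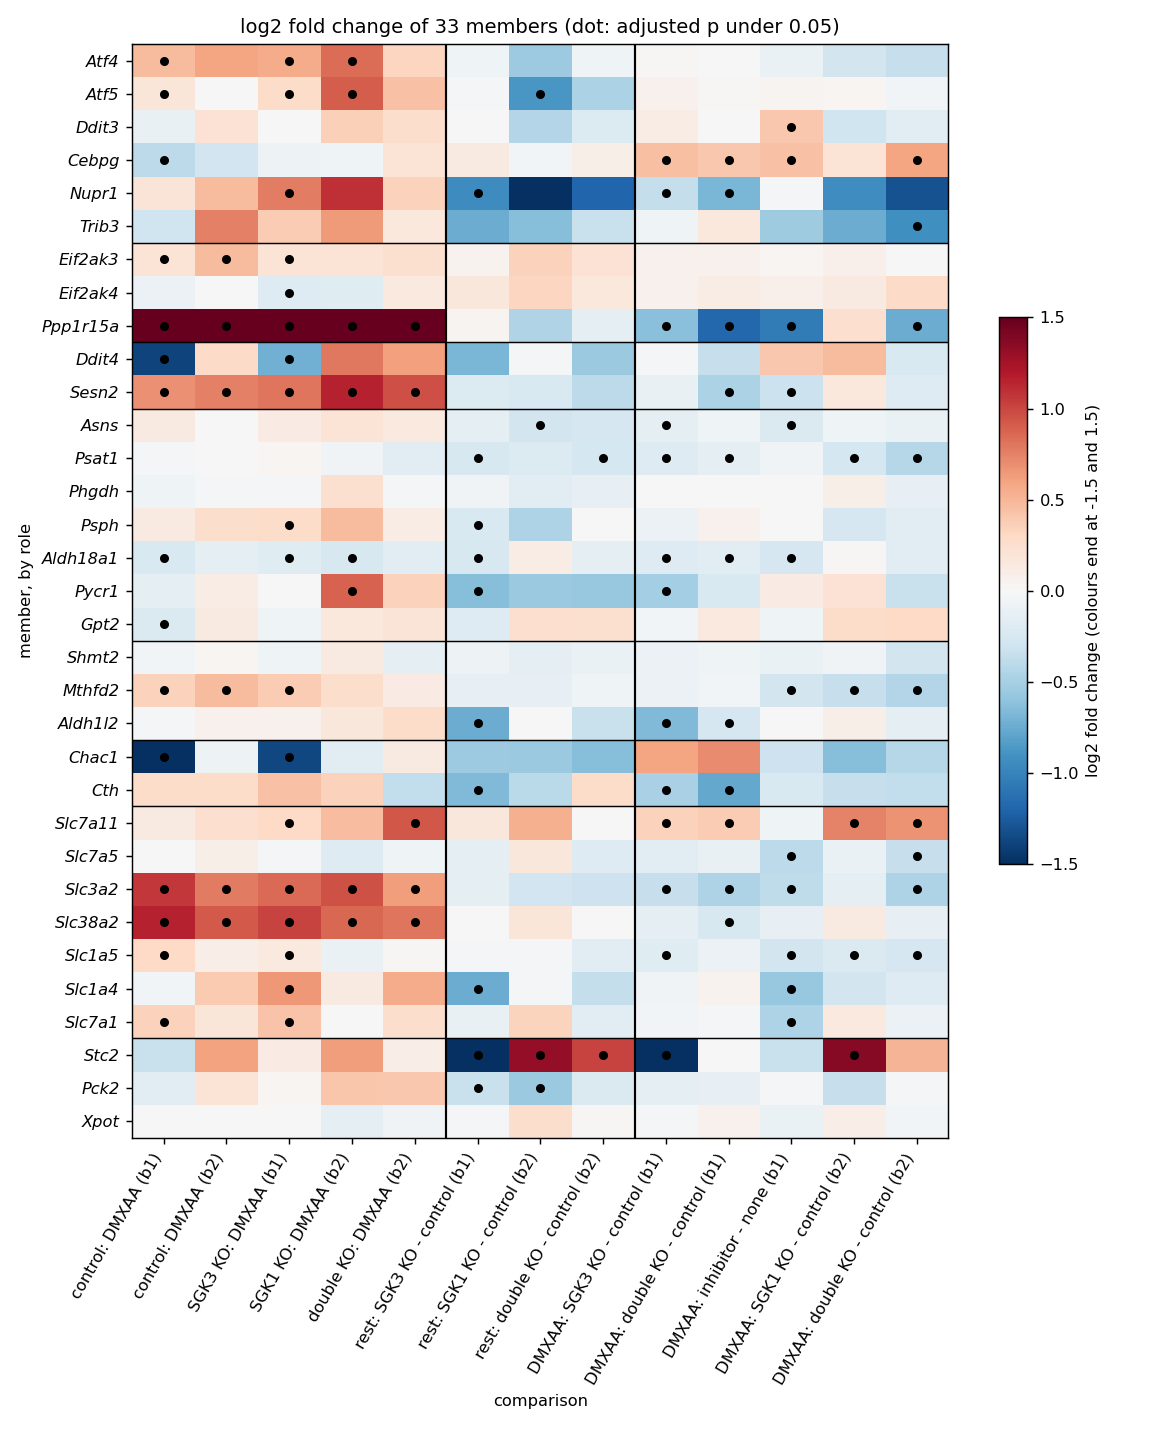
log2 fold change of the 33 tested members (rows, by role) in 13 comparisons (columns: 5 DMXAA responses, 3 line differences at rest, 5 differences under DMXAA); dots mark an adjusted p under 0.05 and colours end at -1.5 and 1.5. Dots run across all 5 response columns for Ppp1r15a, Sesn2, Slc3a2 and Slc38a2, whereas Cebpg is marked higher in 4 of the 5 columns of differences under DMXAA.

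Neighbouring pathways were read from 7 lists of related genes, whose counts stand beside 17.9% of all genes higher and 17.4% lower in the b1 control response and 2.52% higher and 1.46% lower in b2. Of 33 genes of amino acid sensing by mTORC1, 8 rose and 7 fell in b1 control cells and 3 rose and 0 fell in b2; in b1 these shares are near those of all genes. The 3 in b2 were Flcn, Fnip1 and Fnip2, the folliculin complex that regulates the Rag GTPases. Flcn rose in all 5 responses, by log2 1.4, 1.30, 1.23, 1.43 and 1.21 (control b1 and b2, SGK3, SGK1 and double knockout), and Fnip1 by 1.34, 1.22, 0.96, 1.24 and 1.12. Sesn1, a relative of Sesn2, fell instead in b1 control cells (-1.03 ± 0.08) and was higher with the inhibitor (0.97 ± 0.07). Of 15 genes of eIF2 phosphorylation and eIF2B, 7 rose and 2 fell in b1 and 1 rose and 0 fell in b2. Eif2ak2, the interferon-inducible eIF2 kinase PKR, rose by 0.51 in b1 control cells and was lower with DMXAA in every edited line: -1.27 in the SGK3 knockout, -1.21 in the SGK1 knockout, and -1.48 (b1) and -1.45 (b2) in the double knockout. Of 21 other stress targets and partners of ATF4, 19 were tested in b1, where 7 rose and 1 fell, and 18 in b2, where 4 rose and 1 fell. Atf3, a stress-induced relative of ATF4, rose by 1.94 and 2.30, Vegfa by 0.91 and 0.78, and Cebpb fell in both.

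Of 18 genes listed as endoplasmic reticulum chaperones 12 rose and 1 fell in b1 control cells, where 17.9% of all genes were higher and 17.4% lower, and 1 rose and 0 fell in b2, where 2.52% and 1.46% were. Dnajb9, a co-chaperone, rose by log2 1.24 and 0.96, and Hspa5 (BiP) went from a mean of 1490 to 2160 CPM in b1 (0.53 ± 0.06). With DMXAA, 15 of 18 were lower and 1, Xbp1, higher in both the SGK3 knockout and the b1 double knockout. Of all genes 9.59% and 11.9% were lower and 13.3% and 14.5% higher there. Xbp1, though in this list, encodes a transcription factor and not a chaperone. In b2, 13 were lower and 1 higher in the double knockout (6.41% of all genes lower), and 9 lower and 0 higher in the SGK1 knockout (4.07%). With the inhibitor 12 were lower and 1 higher (10.1% of all genes lower). At rest 10, 3 and 8 were lower and 0 higher in the SGK3, SGK1 and double knockouts, where 4.6%, 3.15% and 1.87% of all genes were lower. Examples were Sdf2l1 (-0.56 in the SGK3 knockout), Pdia4 (-0.44) and Pdia6 (-0.87 in the b2 double knockout). Dnajc3 is in both this list and the eIF2 list.

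Of 20 cytosolic aminoacyl-tRNA synthetases, another class of ATF4 targets, 5 rose and 1 fell in b1 control cells, where 17.9% of all genes were higher and 17.4% lower, and 0 were called in b2, where 2.52% and 1.46% were. With the inhibitor 13 were lower and 1 higher, among them Cars (log2 -0.24), Gars (-0.23) and Aars (-0.19). With DMXAA 7 were lower in the SGK3 knockout, 2 in the b1 double knockout, 2 in the SGK1 knockout and 7 in the b2 double knockout, where 9.59%, 11.9%, 4.07% and 6.41% of all genes were lower, against 10.1% with the inhibitor. Of 21 further serine, folate and transsulfuration genes, 5 rose and 4 fell in b1 control cells, near the shares of all genes, and 1 rose in b2, the methionine adenosyltransferase subunit gene Mat2b (0.93 and 0.65). Shmt1, the cytosolic serine hydroxymethyltransferase, was lower with DMXAA in the SGK3 knockout (-0.41), the b1 double knockout (-0.39) and the b2 double knockout (-0.64). Of 20 other amino acid transporters, 17 were tested in b1, where 3 rose and 2 fell, no more than the shares of all genes, and 18 in b2, where 1 rose. Slc7a8 (LAT2, a further light chain of Slc3a2) was the most different of them between lines: with DMXAA its log2 difference from control cells was -3.52 in the SGK3 knockout, -2.43 in the SGK1 knockout, -3.91 and -4.13 in the double knockout, and -0.57 with the inhibitor.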

How the data were processed

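Gene levels of 50 poly(A) RNA-seq libraries were taken from the deposited tables of estimated counts and of TPM per gene. STAR 2.7.9a, StringTie 2.2.0 and build GRCm39 are named in the submitters' processing notes with no role; how the authors turned alignments into estimated counts is not given in the sources used here. The authors' deposited counts were whole numbers, used as such (rounding changed nothing), and low values of 4 were the most common (17.5%), so 1 read pair may stand for several counts; counting errors therefore cannot be taken from them directly. The deposited TPM values, which the authors scaled for gene length, were used to rank members and in alternative fits. Together with the counts they also gave the relative gene lengths from which the length trends of the libraries were computed.

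The members and all gene lists were chosen with earlier results of these data known. Members were matched by symbol: 34 symbols gave 35 rows, since Ddit3 has a second identifier with 0 counts. The 1492 rows with no symbol stayed in the fits. Counts were fitted per batch in edgeR 4.0.16 (R 4.3.3, limma 3.58.1) over all groups of the batch, with filterByExpr, TMM scaling and the robust quasi-likelihood test, leaving 16947 genes in b1, 16622 in b2 and 18315 in a fit over both used for differences between batches. p-values were adjusted over all genes tested (Benjamini-Hochberg), with 0.05 as the threshold; a group difference of a member is a log2 fold change with its SE. Scripts were tested on simulated data. No overlap means that every library of one group lay above every library of the other. Members so described were often picked as called. The share of all genes without overlap was not counted, so no overlap is given as a description only.

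Alternatives were other scaling, DESeq2 1.42.0, other filters, 1 fit over both batches, only the groups compared, limma voom, limma on log2(TPM + 1) or log2(TPM + 0.1), a length-trend correction, leaving out the length-trend libraries, adding batch b3, a replicate block, and leaving out each library. Up to 5 members with the largest called change per comparison (mean of at least 1 CPM in 1 group) are given in full, plus Atf4, Ddit3, Asns, Trib3 and Chac1 in control cells; other members were named after their values were seen. The 7 lists of related genes cover eIF2 phosphorylation and eIF2B, tRNA synthetases, serine, folate and transsulfuration, other amino acid transporters, amino acid sensing by mTORC1, other stress targets and partners of ATF4, and endoplasmic reticulum chaperones, and their examples are the largest called changes or genes followed across comparisons. Same-numbered b1 libraries did not deviate together: in 57 pairs the correlation ran from -0.12 to 0.09, and 0 exceeded 0.1. Promoter windows come from RefSeq (GRCm38.p6); gene coordinates are those of GRCm39.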

Additional observations from a re-analysis of the deposited data

Results flagged for a closer look

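A library stood far from the rest of its group in 12 of 198 member and group pairs (6.06%, over 6 groups of 4 or 5 libraries), where chance gives about 1 in 20. Library 5 of the DMXAA-treated SGK3 knockout did so for 4 members: Cebpg was highest there (63.5 CPM, others 46.2 to 49.7), as was Slc1a4 (18.1 CPM, others 14.8 to 15.7), while Slc38a2 (911 CPM, others 1170 to 1240) and Slc3a2 (248 CPM, others 290 to 296) were lowest. Library 2 of that group was lowest for Pycr1 (3.86 CPM, others 5.75 to 6.22). Among DMXAA-treated b1 control libraries, library 2 was lowest for Atf4 (357 CPM, others 375 to 379) and highest for Slc7a11 (23.5 CPM, others 18.8 to 19.6), and library 5 was highest for Cth (6 CPM, others 4.94 to 5.05) and Stc2 (8.61 CPM, others 6.39 to 6.94). The remaining 3 were Eif2ak3 in b2 control library N (42.1 CPM, others 52.5 to 53.1), Cebpg in inhibitor library 1 (55.5 CPM, others 48.5 to 49.5) and Slc3a2 in b1 double-knockout library 5 (217 CPM, others 266 to 280).

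Responses or line differences themselves differed, by edgeR's test of the difference, for 5 members. Slc1a4 rose more with DMXAA in the SGK3 knockout than in control cells (log2 0.69), and Chac1 fell in b1 control cells but not in b2 (difference -2.41). The double knockout's difference from control cells under DMXAA was higher (more positive) in b1 than in b2 for Trib3 (1.10), Mthfd2 (0.41) and Psat1 (0.29).

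Library J, titled as an untreated control but with DMXAA in its treatment entry, entered no comparison. Its column name carries the letter D, as do those of control libraries given DMXAA alone. Of the 6 members that rose with DMXAA in b2 control cells, it was above the b2 resting range for 6 and within the b2 treated range for 5. Ppp1r15a was at 196 CPM (resting 12.7 to 14.5, treated 178 to 291), Slc38a2 at 1140 CPM (545 to 607 and 1040 to 1170), Slc3a2 at 290 CPM (169 to 192 and 270 to 354), Mthfd2 at 209 CPM (151 to 169 and 209 to 236), Eif2ak3 at 48.0 CPM (34.4 to 38.5 and 42.1 to 53.1) and Sesn2 at 18.8 CPM (13.3 to 14.1 and 22.3 to 25.0). The library belongs to the rerun batch b3, and its treatment cannot be settled from these values.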

How the results depend on the processing

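The alternatives included 69 fits that each left out 1 of 46 libraries. Of 2632 values of 131 single-member results over all alternatives, 2322 kept their direction and their side of the threshold, 282 lost and 18 gained a call, and 10 turned sign. Those 10 were all of changes not called in control cells: Ddit3 in b1 was 0.04 by voom and 0.16 without resting library 1, Trib3 in b1 was 0.02 without it, Ddit3 in b2 was -0.07 without C, Asns in b2 was 0 with the length trend removed, -0.01 without B and -0.03 without L, and Chac1 in b2 was 0.16 by voom, 0.12 without B and 0.01 without K. Over the fits without 1 library these changes ran from -0.23 (Ddit3, b1), -0.47 (Trib3, b1) and -0.24 (Chac1, b2) or up to 0.55 (Ddit3, b2) and 0.03 (Asns, b2) at the other end. The cause of these and the following shifts was not tested. Of 374 counts of called members, 79 were over 1.5 times from the reported one. The share of all genes called was counted only for the reported fits. A count that moved in another setting therefore cannot be read as particular to the members.

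In the fit over both batches the counts were 10 for the SGK3-knockout response (reported 18), 5 for that line at rest (10), 16 for the SGK1-knockout response (8), 8 for the double-knockout response (5), 12 for the SGK1 knockout at rest (4), 9 and 14 for the SGK1 and double knockouts with DMXAA in b2 (5 and 9), and 0, 1 and 1 for the interactions of the SGK3, SGK1 and double knockouts (1, 0 and 0). By voom they were 12 for the b2 control response (6), 16 and 12 for the b2 knockout responses, 14 and 8 at rest (4 and 2), 8 and 15 with DMXAA, and 1 and 2 for the b2 interactions. With the length trend removed they were 10 for the b2 control response, 16 and 9 for the knockout responses, 15 for the double knockout with DMXAA and 4 for the batch difference of the control response (1). Without the length-trend libraries they were 5 and 8 for the knockout responses, 0 for the SGK1 knockout at rest, 3 for it with DMXAA and 5 for the batch difference. DESeq2 gave 11 and 4 at rest in b2, 2 for the SGK3 interaction and 1 for the double-knockout interaction; no filter gave 1 and 1 at rest; the 1 CPM filter gave 1 for the double-knockout interaction. With only the groups compared, the double-knockout response had 2, the b2 lines at rest 0 and 0, and the SGK3 and double-knockout interactions 2 and 1. Both TPM fits gave 1 for the double knockout at rest, 3 and 5 with DMXAA in b2 and 0 for the SGK3 interaction. With batch b3 added there were 2 and 1 at rest and 2 and 5 with DMXAA.

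Leaving out single libraries gave 6 to 11 for the SGK3 knockout at rest, 1 to 11 and 0 to 1 for the SGK1 and double knockouts at rest, 3 to 5 and 4 to 9 for them with DMXAA, 0 to 1 for the SGK3 interaction, and 1 to 2 and 1 to 3 for the batch differences of the control response and of the double knockout. With a replicate block in b1, 14, 16, 9, 13, 12, 13 and 1 members were called (control response, SGK3-knockout response, SGK3 knockout at rest and with DMXAA, double knockout, inhibitor, interaction), each within 1.5 times of the reported count, and 5 of 26 libraries correlated best with their own number. How depth limits single members was not tested.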
